A study of Mus musculus with 16 samples.

Results

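Adrenal glands of female and male mice that had received an isotype control Ab were compared by bulk RNA-seq, with 4 females against 4 males and with autosomal genes alone. These 8 mice were taken from 16 in the study by their labels, and 16033 autosomal genes were kept of 16654 genes that passed a filter on low counts. Both groups were wild-type C57BL/6 mice aged 7 weeks, and each mouse had been injected intraperitoneally with 500 µg of the isotype Ab 2 times at an interval of 2 days. The glands were taken 16 h later. The other 8 mice (4 females and 4 males) received an anti-CD115 Ab, which blocks CSF1R, on the same schedule. Both glands of a mouse were pooled in 1 library, so that cortex, medulla, capsule and any attached tissue were measured together. The protocol in the labels also describes a cold exposure, which was taken as not applied here because the sample labels name the Ab alone. Mice without an injection were not analysed here, and the estrous stage of the females and the clock time of collection are not given in the sources used here.

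The adrenal cortex makes steroid hormones from cholesterol in concentric zones, with aldosterone made in the outer zona glomerulosa and corticosterone in the zona fasciculata, and chromaffin cells of the medulla make catecholamines. In mice, an inner layer of the cortex next to the medulla, the X-zone, is lost in males at puberty and lasts longer in females. Androgens and estrogens act on the gland through their receptors in cortical cells, and capsular cells under hedgehog and Wnt control renew the cortex. Resident macrophages, mast cells and a dense net of capillaries lie among the steroid-making cells.

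The isotype libraries held between 24929092 and 26289129 counts, so that 3 counts, used here as the floor of detection, were 0.114 to 0.120 CPM of the library totals, before TMM scaling. Levels by mouse are CPM (counts scaled to the size of each library) with TMM factors. The sex labels were checked with genes of the sex chromosomes, which were left out of all other results. The Y-linked gene Ddx3y was between 44.5 and 67.1 CPM in males and at 0 in females. The X-linked gene Xist, which is transcribed from the inactive X chromosome, was at 187, 46.6, 213 and 168 CPM in females 1 to 4 and at 0 in males. Every library therefore carried the genes of its labelled sex, with the lowest female Xist in female 2. The labelled tissue was checked with Cyp11b1 of the cortex, which was between 3624 and 8237 CPM in every library, and Th of the medulla, between 403 and 2383 CPM. The library numbers in the file names run from 11 to 15 in the males and from 16 to 19 in the females, so that library number and sex cannot be told apart. Of 28 pairs of isotype libraries, 0 were identical. A positive log2 fold change below is higher in females, and an adjusted p-value under 0.05 is the threshold for a gene to be called. A bare value in parentheses after a gene is its log2 fold change.

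Of the 16033 autosomal genes, 2980 were called, which was 18.6%. Females were higher for 1362 genes (8.49%) and lower for 1618 (10.1%), and the median log2 fold change of all genes tested was 0.01. Most of these differences were modest, with medians of 0.64 for the rising and -0.72 for the falling genes. More than 2-fold changes were seen for 393 genes higher and 414 lower in females, and more than 4-fold changes for 146 and 87. The 146 genes summed to 12844 ± 2596 CPM (SD, n = 4) in females and 565 ± 49.96 CPM in males, and the 87 genes to 570 ± 66.3 CPM in females and 4094 ± 175 CPM in males. In 2488 of the called genes, the values of the 4 females and the 4 males did not overlap, while the groups did not overlap in 3274 of all autosomal genes (20.4%). Across autosomes the called share ran from 16.0% on chromosome 8 to 21.4% on chromosome 6. It was 9.84% among genes with a mean log2 CPM under 1 and 25.9% among genes of 7 or more. Because whole glands were measured, fewer cells of a type and less RNA per cell cannot be told apart for any gene below.

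**Figure D1:**
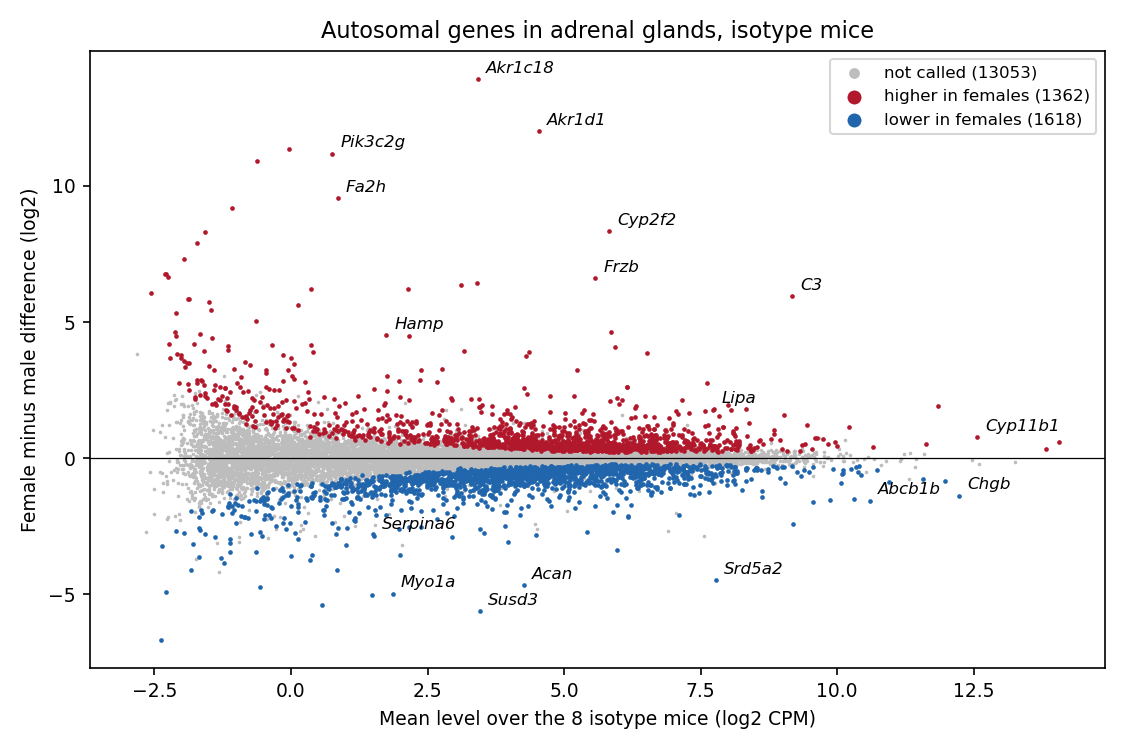
Mean log2 CPM of each of the 16033 autosomal genes (x axis) and its female minus male log2 fold change in isotype mice (y axis), with 1362 genes called higher in females in red, 1618 called lower in blue and 13053 others in grey. Akr1c18, Akr1d1 and Pik3c2g lie at the top, and Susd3 and Srd5a2 near the bottom.

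The X-zone list held 3 genes, and all 3 were higher in females (100% called, against 18.6% of all autosomal genes). Of these, Akr1c18 and Pik3c2g reached 10 counts among isotype mice in females alone. Akr1c18 encodes 20α-hydroxysteroid dehydrogenase, which inactivates progesterone, and is the usual marker of the X-zone. It lies on chromosome 13 (chr13:4132615-4150654, GRCm38). It was read in 20505, 29153, 28324 and 23051 fragments in females 1 to 4, or 737, 1157, 1112 and 875 CPM, and in 0, 2, 0 and 4 fragments in males 1 to 4. All females stood far above all males, whose values were at the floor or near it. The ratio of the summed counts, scaled by library size, was 16740 (95% interval 7692 to 45630, counting error only), and the fitted log2 fold change was 13.94 (SE 1.32, adjusted p = 5.82e-07). Pik3c2g, a class II phosphoinositide 3-kinase, had 806, 976, 945 and 764 counts in females and 0, 0, 0 and 1 in males, a ratio of 3471 (95% interval 622.6 to 137100, counting error only). Thrb, the β receptor for thyroid hormone, was present in both sexes, at 70.5, 78.5, 57.6 and 79.5 CPM in females 1 to 4 and 28.8, 20.9, 20.9 and 20.4 CPM in males 1 to 4 (log2 fold change 1.65, SE 0.13, adjusted p = 2.34e-08). The highest male, male 1, was below the lowest female, female 3. Per length, the mean levels in females were 804 RPKM for Akr1c18 and 2.65 RPKM for Pik3c2g.

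Promoter bases are shown for 2 genes of chromosome 13, Akr1c18 with the largest rise and Susd3 with the largest fall in females among the genes named by the rule for large changes. They are from RefSeq promoters of build GRCm38.p6, 5′ to 3′ on the minus strand, for chr13:4150655-4150896 and chr13:49248432-49248461. Capitals mark the motif CAAGGTCA, the site of the steroidogenic factor encoded by Nr5a1 and of related nuclear receptors, which was searched on both strands.
Akr1c18: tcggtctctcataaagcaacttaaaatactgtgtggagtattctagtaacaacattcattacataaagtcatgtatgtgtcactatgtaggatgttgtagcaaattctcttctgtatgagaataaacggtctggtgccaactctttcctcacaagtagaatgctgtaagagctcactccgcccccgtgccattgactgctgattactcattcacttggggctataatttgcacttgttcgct
Susd3: ctgtcactctcCAAGGTCAcctgcctggcc
These letters were not in the Akr1c18 window. In Susd3 they start 156 bases before the RefSeq start, in a stretch that lies inside the gene as the files give it. The motif was present in 21 of 1026 promoters (2.05%) of genes higher in females and 20 of 1217 (1.64%) of genes lower in females, against 1.45% of autosomal genes tested and 1.76% of all 27025 promoters. The full palindromic sites of the androgen and glucocorticoid receptors and of the estrogen receptor were in 0 promoters of called genes, and in 0.0111% and 0.0740% of all promoters.

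Several other genes were low in males and high in females. Akr1d1, the 5β-reductase that inactivates steroids with a 4-ene-3-keto group, was at 1731, 1879, 1395 and 1309 CPM in females and at 0.0389, 0.837, 0.416 and 0.194 CPM in males (log2 fold change 12.01, SE 1.36, adjusted p = 4.98e-05), although its locus overlaps the gene model Gm7463 on the same strand. Fa2h, which hydroxylates the fatty acids of sphingolipids, had 3329 summed counts in females and 4 in males (ratio 827.5, 95% interval 322.9 to 3039). The P450 enzyme Cyp2f2, known from lung and liver, was at 1042, 1528, 979 and 1158 CPM in females and 1.56, 9.09, 1.67 and 2.13 CPM in males (log2 fold change 8.33, SE 0.81, adjusted p = 1.3e-05). Among the males, male 2 was highest for both Akr1d1 and Cyp2f2, but it was still far below each female. Male 2 and female 3 also carried the most liver transcripts, with albumin (Alb) at 1.83, 10.6, 140 and 17.5 CPM in females 1 to 4 and 0.428, 323, 10.9 and 1.28 CPM in males 1 to 4. The part of liver tissue in the levels of these genes was not tested. Hamp, which encodes the iron-regulating hormone hepcidin, was at 20.1, 32.5, 28.3 and 37.1 CPM in females 1 to 4 and 0, 4.26, 0.757 and 0 CPM in males 1 to 4 (log2 fold change 4.51, SE 0.76, adjusted p = 0.000948), with male 2 the highest male and no overlap. Without male 2 and female 3, the log2 fold changes were 12.82 for Akr1d1, 9.42 for Cyp2f2 and 6.82 for Hamp.

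The genes Frzb, C3, Cd1d1 and Elfn1 were among the largest rises as well. Frzb, a secreted inhibitor of Wnt signals that stood on the list of zona fasciculata genes, was at 461, 561, 426 and 456 CPM in females and 5.10, 3.09, 6.97 and 4.27 CPM in males (log2 fold change 6.62, SE 0.40, adjusted p = 8.43e-08). C3, the central protein of the complement cascade, was at 5591, 6690, 4143 and 3003 CPM in females and 63.7, 136, 45 and 70.1 CPM in males (log2 fold change 5.95, SE 0.76, adjusted p = 0.000133). All females exceeded all males for both, with female 4 the lowest female for C3. Cd1d1, which presents lipids to natural killer T cells, was at 260, 282, 236 and 270 CPM in females and 24.7, 8.55, 15.7 and 12.5 CPM in males (log2 fold change 4.09, adjusted p = 6.09e-07). The leucine-rich repeat protein Elfn1 had more spread in females, with 65.7, 137, 167 and 45.8 CPM against 1.36, 1.05, 1.63 and 0.737 CPM in males (log2 fold change 6.43, adjusted p = 8e-05). The acid phosphatase Acpp (log2 fold change 4.48), Nrep (4.62), Xrra1 (6.38) and 4930486L24Rik (6.22) were also more than 4-fold higher in females. Among steady rises with little spread were Lipa, the lysosomal acid lipase that frees cholesterol from its esters, at 410, 406, 362 and 393 CPM in females 1 to 4 and 131, 106, 101 and 119 CPM in males 1 to 4 (log2 fold change 1.78, SE 0.09, adjusted p = 7.49e-12), and the Golgi mannosidase Man1a (log2 fold change 2.22, adjusted p = 7.42e-12).

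The largest falls in females were led by Susd3, a sushi-domain membrane protein, at 1.51, 1.95, 1.65 and 1.10 CPM in females 1 to 4 and 69.8, 53.8, 81.2 and 103 CPM in males 1 to 4 (log2 fold change -5.63, SE 0.36, adjusted p = 8.02e-08). Srd5a2, the type 2 steroid 5α-reductase that makes dihydrotestosterone from testosterone, was at 45.7, 55.0, 39.8 and 47.1 CPM in females 1 to 4 and 1235, 1030, 1043 and 860 CPM in males 1 to 4 (log2 fold change -4.47, SE 0.17, adjusted p = 8.18e-13). No female approached the males for either gene. Myo1a, a myosin of epithelial brush borders, was at 0.826, 0.595, 0.275 and 0.797 CPM in females and 19.3, 23.6, 19 and 18.2 CPM in males (log2 fold change -4.98, adjusted p = 4.51e-12). Acan, the cartilage proteoglycan aggrecan, was at 3.90 ± 1.59 CPM in females and 100 ± 20.0 CPM in males (SD, n = 4, log2 fold change -4.67, adjusted p = 2.26e-09). Sema5b, a semaphorin of axon guidance, had little spread, at 17.2, 17.1, 16.0 and 16.2 CPM in females 1 to 4 and 102, 105, 126 and 109 CPM in males 1 to 4 (log2 fold change -2.73, SE 0.14, adjusted p = 2.04e-11). Cxcr4, the receptor of the chemokine CXCL12, was even in females (20.3, 22, 21.9 and 21.5 CPM) and uneven in males (54.3, 189, 360 and 290 CPM), with male 1 the lowest male but above all females (log2 fold change -3.38, adjusted p = 0.000567). Serpina6 encodes corticosteroid-binding globulin and was at 0.826, 0.516, 2.24 and 0.835 CPM in females 1 to 4 and 7.67, 8.51, 8.79 and 6.79 CPM in males 1 to 4 (log2 fold change -2.85, adjusted p = 1.29e-07). Other falls of more than 4-fold were 2010109I03Rik (log2 fold change -5.03), the ganglioside sialyltransferase St8sia5 (-3.54), C2cd4b (-3.20), the potassium channel Kcnk1 (-3.08), the alkaline phosphatase Alpl (-2.90) and the neuroendocrine peptide precursor Vgf (-2.83).

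**Figure D2:**
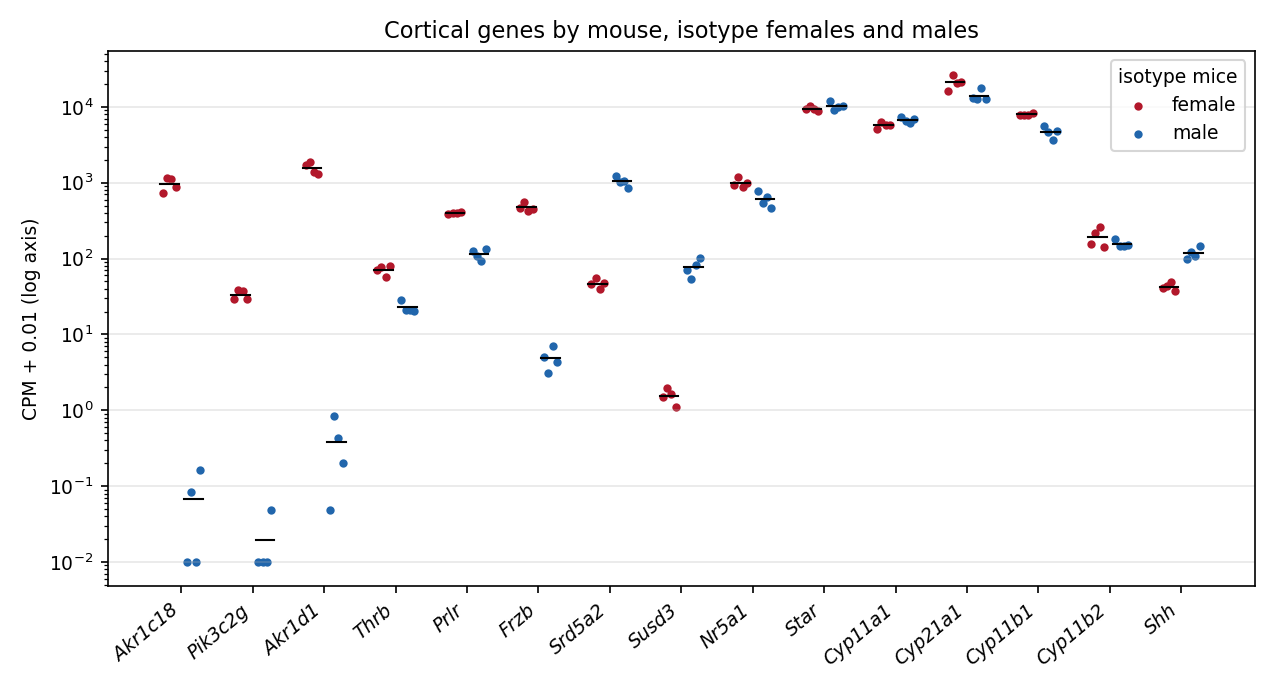
CPM plus 0.01 of 15 genes (log axis) in each of the 4 isotype females and 4 isotype males, with points for mice and bars for group means. The title calls the genes cortical, but whole glands were measured and their cell source was not tested. Akr1c18, Pik3c2g and Akr1d1 separate the sexes by orders of magnitude, while Star, Cyp11a1 and Cyp11b2 overlap.

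The steps of corticosterone synthesis did not all move together. Of 19 tested genes of the steroid synthesis list, 6 were higher and 4 lower in females (52.6% called, against 18.6% of all autosomal genes), with a median log2 fold change of -0.02. Star, which carries cholesterol into mitochondria, and Cyp11a1, which cleaves its side chain, were not called, at log2 fold changes of -0.13 and -0.23. Cyp11b1, the 11β-hydroxylase that completes corticosterone, was at 7740, 7919, 7890 and 8237 CPM in females 1 to 4 and 5577, 4677, 3624 and 4836 CPM in males 1 to 4 (log2 fold change 0.76, SE 0.12, adjusted p = 0.000101), so that the lowest female was above the highest male. Cyp21a1, the 21-hydroxylase, rose as well (log2 fold change 0.59, adjusted p = 0.00703), but male 3, at 17970 CPM, was above female 1 at 16380 CPM. Nr5a1, the transcription factor that controls most of these enzymes, was at 939, 1205, 892 and 988 CPM in females and 771, 543, 644 and 470 CPM in males (log2 fold change 0.73, adjusted p = 0.00182). Por, the electron donor of microsomal P450 enzymes (log2 fold change 0.81), and Stard4, a cytosolic cholesterol carrier (0.73), were higher. The donors of the mitochondrial enzymes were lower, with ferredoxin Fdx1 at 191, 248, 280 and 341 CPM in females 1 to 4 and 680, 433, 766 and 569 CPM in males 1 to 4 (log2 fold change -1.21, SE 0.21, adjusted p = 0.000747) and its reductase Fdxr at a log2 fold change of -0.30 (adjusted p = 0.0241). The call of Fdxr ended without female 1, male 1 or male 3, with adjusted p up to 0.11, and that of Hsd3b1 without female 4, male 2 or male 3, with adjusted p up to 0.122. Of the 3β-hydroxysteroid dehydrogenases, Hsd3b1 was higher (0.32) and Hsd3b6, of the zona glomerulosa, lower (-1.11). Cyp17a1, whose absence from the adult mouse cortex leaves corticosterone as its main glucocorticoid, was called lower, but on 11 summed counts in females and 86 in males. The paralogs of the Akr1c, Hsd3b and Cyp21a families share sequence, and fragments with several alignments were not counted, so their levels are uncertain.

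Aldosterone synthase differed less than the spread between mice. Cyp11b2 was at 156, 220, 258 and 140 CPM in females 1 to 4 and 180, 148, 145 and 153 CPM in males 1 to 4 (log2 fold change 0.31, adjusted p = 0.488, exact two-sided permutation p = 0.314), and the groups overlapped. The smallest p that 4 mice against 4 allow in this permutation test is 0.0286. That value was reached by Akr1c18, Pik3c2g, Thrb, Cyp11b1, Th, Pnmt, Cd74 and Akr1b7, which were among 10 genes tested in this way. Of the 13 tested genes of the zona glomerulosa list, 0 were higher and 4 lower in females (Shh, Hsd3b6, the angiotensin receptor Agtr1b and the calcium channel Cacna1h), a share of 30.8% called against 18.6% of all autosomal genes, with a median of -0.32. Without male 2 or male 3, 2 genes of this list were lower. The call of Cacna1h ended without female 1, female 3, male 2 or male 3 (adjusted p up to 0.0757). Of 9 zona fasciculata genes, 3 were higher (Hsd3b1, Cyp11b1 and Frzb) and 3 lower (Srd5a2, Abcb1b and Fdx1), 66.7% called against 18.6% of all autosomal genes. Akr1b7, an aldose reductase-like enzyme of this zone, was at 1469, 1746, 2253 and 2516 CPM in females 1 to 4 and 4002, 3122, 2569 and 3817 CPM in males 1 to 4 and missed the threshold (adjusted p = 0.0574), although the groups did not overlap. Abcb1b, an efflux pump for steroids and drugs, fell by 1.56 on the log2 scale (adjusted p = 4.87e-08), at a locus that overlaps 7330423F06Rik on the same strand.

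Enzymes that convert or inactivate steroids held some of the largest differences in each direction. Of 23 tested members, 5 were higher in females (Akr1c18, Akr1d1, Hsd17b7, Akr1c13 and Srd5a1) and 4 lower (Srd5a2, Cyp7b1, Cyp39a1 and Hsd17b11), 39.1% called against 18.6% of all autosomal genes, with a median of 0.04. Without female 3, 2 members were called lower. Of the 5α-reductases, Srd5a1 and Srd5a2 went opposite ways and Srd5a3 was not called (log2 fold change 0.04, adjusted p = 0.81). Srd5a1, the type 1 enzyme, was at 58.6, 65.4, 53.0 and 50.8 CPM in females 1 to 4 and 36.6, 32.9, 27.1 and 29.6 CPM in males 1 to 4 (log2 fold change 0.85, adjusted p = 4.95e-05), while Srd5a2 was more than 4-fold lower. Hsd11b1 and Hsd11b2, which interconvert active and inactive glucocorticoids, were not called (log2 fold changes 0.34 and -0.45). A further 11 members, among them Akr1c6, Hsd17b6 and Sult1e1, had too few counts to be tested.

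Genes of cholesterol synthesis were called in 1 direction. Of 22 tested members, 10 were higher in females and 0 lower (45.5% called, against 18.6% of all autosomal genes), with a median of 0.41, and without male 2 and female 3 the count was 9. Hmgcs1, the synthase that feeds the mevalonate pathway, was at 240, 286, 197 and 266 CPM in females 1 to 4 and 101, 64.6, 59.1 and 69.7 CPM in males 1 to 4 (log2 fold change 1.75, SE 0.14, adjusted p = 3.59e-08). The groups did not overlap for Hmgcs1. The summed level of the list did overlap, with female 3 at 2137 CPM below male 1 at 2194 CPM. Hsd17b7, which acts on sterols as well as on estrone, was at 25.1, 34.6, 26.1 and 27.4 CPM in females 1 to 4 and 10.8, 6.84, 10.4 and 9.15 CPM in males 1 to 4 (log2 fold change 1.61, adjusted p = 2.95e-07). The rise of Fdps (2.26) rested on 375 summed counts in females and 78 in males. Fdps has processed copies elsewhere in the genome, and its level is uncertain for that reason. Idi1, Mvd, Cyp51, Fdft1 and Msmo1 were called higher as well. Srebf2, the transcription factor of the pathway, was not called (-0.10).

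Among 23 genes of cholesterol uptake, storage and export, 4 were higher in females and 3 lower (30.4% called, against 18.6% of all autosomal genes). Scarb1, the receptor for high-density lipoprotein that brings in most of the cholesterol of the mouse adrenal, was at 1932, 2399, 2308 and 2702 CPM in females 1 to 4 and 4281, 3495, 4491 and 3616 CPM in males 1 to 4 (log2 fold change -0.77, adjusted p = 0.00426). Lower with it were the lysosomal cholesterol transporter Npc1 (-0.61) and the lipid droplet protein Plin5 (-1.76). Higher in females, next to Lipa, were the cholesterol exporter Abca1 (0.87), the ester hydrolase Nceh1 (0.52) and the esterifying enzyme Soat1 (0.27). Markers of white adipocytes, which could come with fat around the gland, were called in 0 of 13 members (against 18.6% of all autosomal genes), with a median of 0.38. Adipoq was at 62.5, 10.3, 32.0 and 46.6 CPM in females 1 to 4 and 12.2, 51.7, 9.5 and 37.1 CPM in males 1 to 4. The summed level of these markers was 1631, 857, 984 and 1322 CPM in females 1 to 4 and 766, 1379, 799 and 1167 CPM in males 1 to 4, with overlap, and Pnpla2 was the most counted member.

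Of 15 hormone receptors tested, 4 were higher and 3 lower in females (46.7% called, against 18.6% of all autosomal genes). Prlr, the prolactin receptor, was at 390, 399, 397 and 413 CPM in females 1 to 4 and 128, 109, 91.6 and 134 CPM in males 1 to 4 (log2 fold change 1.79, SE 0.12, adjusted p = 2.35e-09), with each female above each male. Esr1, the estrogen receptor α (log2 fold change 0.85, adjusted p = 0.000799), and Igf1r (0.36) rose with Thrb, whereas Thra, the other thyroid hormone receptor, was lower (-0.33). The membrane estrogen receptor Gper1 (-0.81) and Agtr1b (-0.52) were lower in females. The call of Agtr1b ended without female 1, female 4, male 2, male 3 or male 4 (adjusted p up to 0.109), and 1 receptor was called lower without female 1 or male 3. The ACTH receptor Mc2r, at 628, 621, 588 and 613 CPM in females 1 to 4 and 620, 505, 547 and 632 CPM in males 1 to 4, was not called and overlapped (log2 fold change 0.09, adjusted p = 0.531). Neither were the glucocorticoid receptor Nr3c1 (-0.15) and the growth hormone receptor Ghr (-0.01). The androgen receptor gene is on the X chromosome and was left out.

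Of 25 genes of the capsule and of progenitor signalling, 2 were higher and 4 lower (24.0% called, against 18.6% of all autosomal genes), with a median of -0.20. Shh, the hedgehog ligand of subcapsular progenitors, was at 41.2, 43.3, 49.2 and 36.9 CPM in females 1 to 4 and 98.2, 121, 107 and 146 CPM in males 1 to 4 (log2 fold change -1.47, adjusted p = 3.69e-06), and the groups did not overlap. Gli1, a target and effector of hedgehog signals in capsular cells, was higher (log2 fold change 0.69, adjusted p = 0.0124), so that ligand and target differed in opposite directions. The hedgehog receptor Ptch1, also a target, was not called (-0.19). Lgr5, a receptor for R-spondins (-0.48), and the inhibin subunits Inha (-1.02) and Inhba (-0.98) were lower, and the secreted Wnt binder Sfrp4 was higher (1.01). Without female 1, female 3, male 1 or male 2, 1 gene of this list was higher. Rspo3, Axin2, Wnt4 and Lef1, which carry the Wnt signal of the outer cortex, were not called, with log2 fold changes from -0.38 to 0.56.

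Genes of the medulla were lower in females. Of 26 chromaffin cell genes, 0 were higher and 23 lower (88.5% called, against 18.6% of all autosomal genes), all 26 had a log2 fold change below 0, and their median was -0.93. Their summed level was 7807, 12950, 10553 and 8179 CPM in females 1 to 4 and 23089, 16412, 27709 and 20518 CPM in males 1 to 4, so that the highest female was below the lowest male. In males, Chgb (chromogranin B) contributed the most, with a mean of 7863 CPM. In females, Chga (chromogranin A) and Chgb were close, with means of 3065 and 3029 CPM. Th, the rate-limiting enzyme of catecholamine synthesis, was at 403, 713, 618 and 550 CPM in females 1 to 4 and 1818, 981, 2383 and 1377 CPM in males 1 to 4 (log2 fold change -1.52, SE 0.31, adjusted p = 0.00374). Dbh, which makes noradrenaline (log2 fold change -1.51, adjusted p = 0.000417), the vesicular transporter Slc18a2 (-1.52) and neuropeptide Npy (-1.61) fell alongside it. Pnmt, which makes adrenaline, was at 103, 193, 203 and 152 CPM in females 1 to 4 and 382, 207, 337 and 308 CPM in males 1 to 4 and missed the threshold (log2 fold change -0.92, adjusted p = 0.0846), although female 3 at 203 CPM was just below male 2 at 207 CPM. The receptor Ret (-1.31) and the calcium channel Cacna1a (-0.15) were the other 2 not called. Of 10 genes of sustentacular and Schwann cells, which surround chromaffin cells, 3 were lower (Gfap, Ncam1 and Sox10) and 0 higher (30.0% called, against 18.6% of all autosomal genes), with a median of -0.77, and 5 were lower without male 4. Without male 2 and female 3, the mice with the most Alb, 23 chromaffin genes were lower. The share of medulla in each sample was not measured in another way, and its part in the falls of other neuroendocrine genes such as Vgf was not tested.

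**Figure D3:**
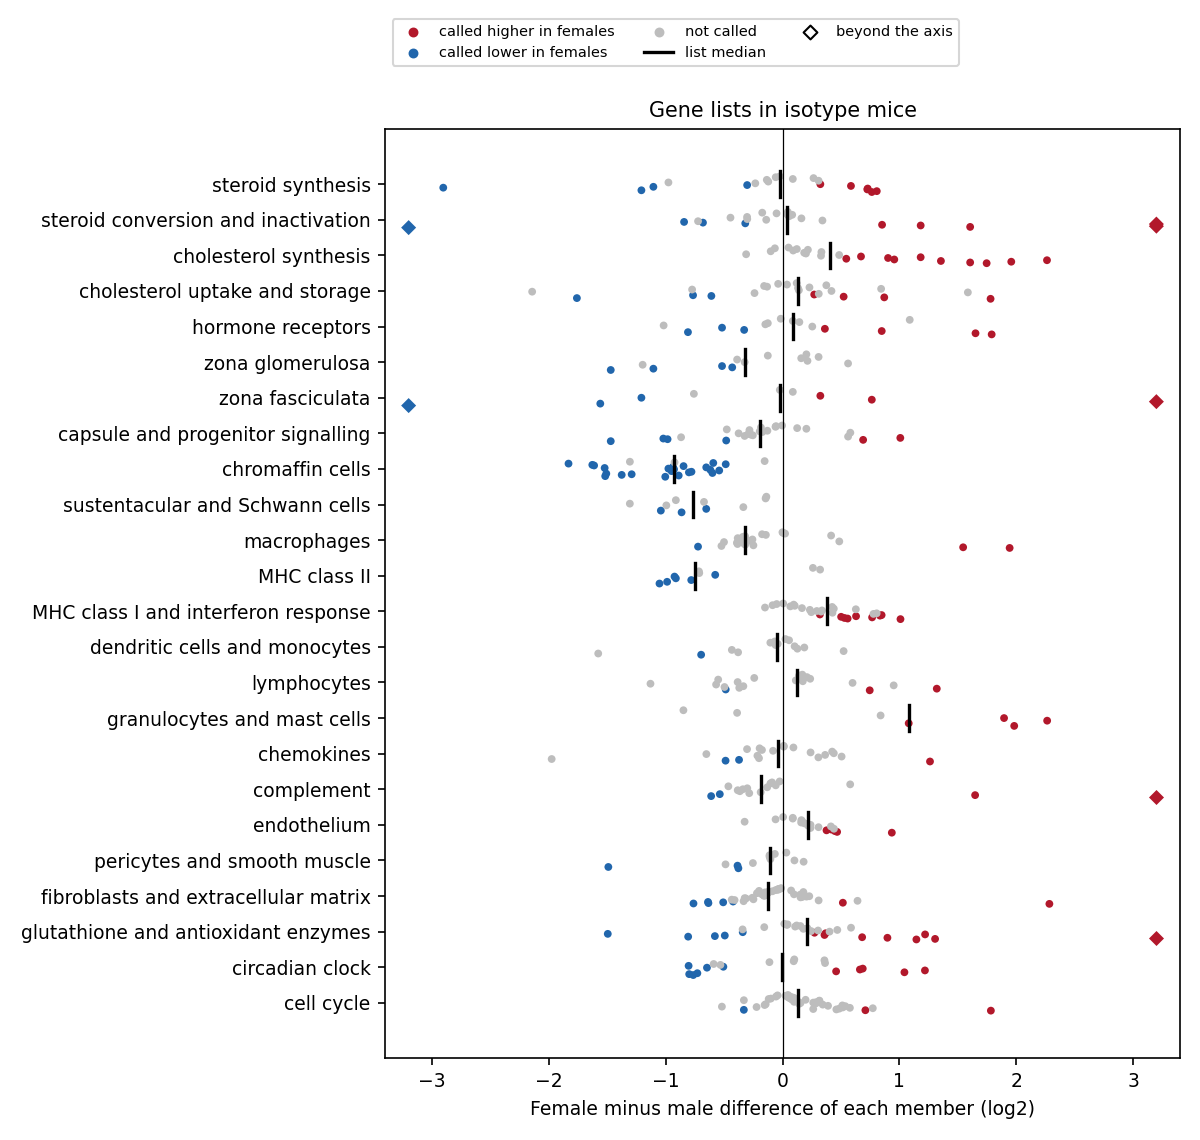
Female minus male log2 fold change (x axis) of each tested member of 24 gene lists (y axis), with called members coloured, others grey, list medians as bars and diamonds for 7 members beyond the axis limit of 3.2. Members of the chromaffin list all lie left of 0, and called members of the cholesterol synthesis list all lie right of it.

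Of 25 macrophage genes tested, 2 were higher and 1 lower in females (12.0% called, against 18.6% of all autosomal genes), with a median of -0.32, and their summed level was 828, 926, 917 and 632 CPM in females 1 to 4 and 911, 952, 1068 and 914 CPM in males 1 to 4. Csf1r, the receptor that the other Ab blocks, was at 50.8, 57.0, 43.1 and 41.5 CPM in females 1 to 4 and 55.6, 60.8, 62.6 and 61.0 CPM in males 1 to 4 (log2 fold change -0.32, adjusted p = 0.133, exact two-sided permutation p = 0.0571). Adgre1 (F4/80), Cd68 and Mrc1 were not called (-0.52, -0.14 and 0.01). The called members were F13a1, the A chain of clotting factor XIII (log2 fold change 1.94, adjusted p = 8.52e-06), and the carbonyl reductase Cbr2 (log2 fold change 1.55, adjusted p = 0.00113), both higher, and Lyve1, a hyaluronan receptor also present on lymphatic endothelium, lower (-0.72). The call of Lyve1 ended without female 1, 2 or 4 or without male 1, 2 or 3 (adjusted p 0.0521 to 0.158), and 2 members were lower without male 4. Lyz2, a lysozyme, was the most counted member, and the tissue macrophage receptor Timd4 was under the filter.

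MHC class II genes were lower in females. Of 10 tested, 6 were lower and 0 higher (60.0% called, against 18.6% of all autosomal genes), with a median of -0.75. Cd74, the invariant chain and most counted member, was at 436, 480, 365 and 272 CPM in females 1 to 4 and 692, 700, 832 and 723 CPM in males 1 to 4 (log2 fold change -0.92, SE 0.24, adjusted p = 0.016). H2-Eb1 (log2 fold change -1.05, adjusted p = 0.0034), H2-Aa (log2 fold change -0.99, adjusted p = 0.00447) and H2-Ab1 (log2 fold change -0.91, adjusted p = 0.00591), the chains of the class II molecules, and H2-DMa and H2-DMb1, which load their peptides, fell too. Their summed level was 806, 859, 709 and 513 CPM in females 1 to 4 and 1300, 1322, 1579 and 1324 CPM in males 1 to 4, without overlap, and without male 2 and female 3, the mice with the most Alb, 4 of the 10 were called lower and Cd74 was not (log2 fold change -0.94, adjusted p = 0.0604). Ciita, the master regulator of these genes, was at a log2 fold change of -0.71 and was not called, and H2-Oa (0.26) and H2-Ob (0.32) did not share the direction. Of 14 genes of dendritic cells and monocytes, Itgax (CD11c) was called lower (-0.70) and 13 were not called (7.14% called, against 18.6% of all autosomal genes), with Ccr2 at 0.13 and Flt3 at 0.06.

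Of 28 class I and interferon genes tested, 9 were higher in females and 0 lower (32.1% called, against 18.6% of all autosomal genes), with a median of 0.38. Irf8, a transcription factor of interferon-responsive and myeloid cells, was at 42.5, 47.0, 38.2 and 33.0 CPM in females 1 to 4 and 21.6, 21.5, 21.2 and 15.5 CPM in males 1 to 4 (log2 fold change 1.01, adjusted p = 2.87e-05), with male 4 well below the other males. The peptide transporter Tap1 (log2 fold change 0.56, adjusted p = 0.00689), the class I chain H2-K1 (log2 fold change 0.50, adjusted p = 0.0149) and the class I regulator Nlrc5 (0.83) were higher, as were the guanylate-binding proteins Gbp2, Gbp3 and Gbp7. The classical interferon-induced genes Ifit1, Irf7, Isg15 and Mx1 were not called, with log2 fold changes between -0.15 and 0.17. Neither was B2m, the light chain of class I molecules (0.07). Without male 2 and female 3, 4 of the 28 and 1032 of all autosomal genes were higher, and H2-K1 was not called (adjusted p = 0.0709).

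Of 7 tested genes of mast cells and granulocytes, 4 mast cell proteases were called higher in females, at low counts (57.1% called, against 18.6% of all autosomal genes). With at least 10 counts required in every isotype mouse, 1 member was called. Tpsb2, a tryptase, had 230 summed counts in females and 58 in males (log2 fold change 1.98, adjusted p = 0.000619), and Cpa3, a carboxypeptidase, 206 and 98 (log2 fold change 1.08, adjusted p = 0.0108). The chymases Mcpt4 (88 and 18 counts) and Cma1 (94 and 25 counts) were called as well, with adjusted p = 0.0173 and 0.0389. Values of the sexes overlapped for Cpa3, Mcpt4 and Cma1 and not for Tpsb2. The call of Mcpt4 ended without female 4 or male 3 (adjusted p up to 0.0631), and that of Cma1 without any mouse but female 2 or male 2 (adjusted p up to 0.12). The other 3 tested members of this list, Kit, Csf3r and S100a9, were not called. A further 9 members were under the filter, among them S100a8, Ly6g and the mast cell and basophil genes Fcer1a and Ms4a2. Of 20 lymphocyte genes, Rora (0.75) and the granzyme Gzma (1.32) were higher and Gata3, which chromaffin cells also express, was lower (15% called, against 18.6% of all autosomal genes). Rora was at a mean of 147 CPM in females and 87.7 CPM in males, and which cells it came from was not tested. The call of Gzma ended without female 1, female 3, male 1, male 2 or male 3 (adjusted p up to 0.115), and that of Gata3 without female 1, female 4 or male 3, while 2 members were lower without female 2 or male 2. The T cell gene Cd3e (-0.55) and the B cell genes Cd79a (0.15) and Ighm (0.11) were not called.

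Of 20 chemokines and growth factors of myeloid cells, 1 was higher and 2 lower (15% called, against 18.6% of all autosomal genes). Il34, a ligand of CSF1R, was at 64.1, 78.6, 50.8 and 68.9 CPM in females 1 to 4 and 23.4, 31.4, 34.0 and 20.5 CPM in males 1 to 4 (log2 fold change 1.26, SE 0.15, adjusted p = 3.74e-06), and each female was above each male, whereas Csf1, the other ligand of this receptor, was not called (-0.20). Cx3cl1 (-0.49) and Cxcl12 (-0.37) were lower, and 1 member was lower without female 2, female 4, male 2 or male 3. In the complement list, 2 of 17 were higher, C3 and the protease Masp1 (log2 fold change 1.65, adjusted p = 0.000981), and 2 lower, C1ra (-0.61) and the inhibitor Cd55 (-0.54), a share of 23.5% called against 18.6% of all autosomal genes. Without female 2, female 4 or male 3, 1 member was lower. The list summed to 6272 ± 1679 CPM in females and 1614 ± 136 CPM in males (SD, n = 4). In females, C3 was the most counted member, at 4857 ± 1617 CPM. In males, C3 (78.7 ± 39.7 CPM) was below C1ra (135 ± 9.07 CPM).

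**Figure D4:**
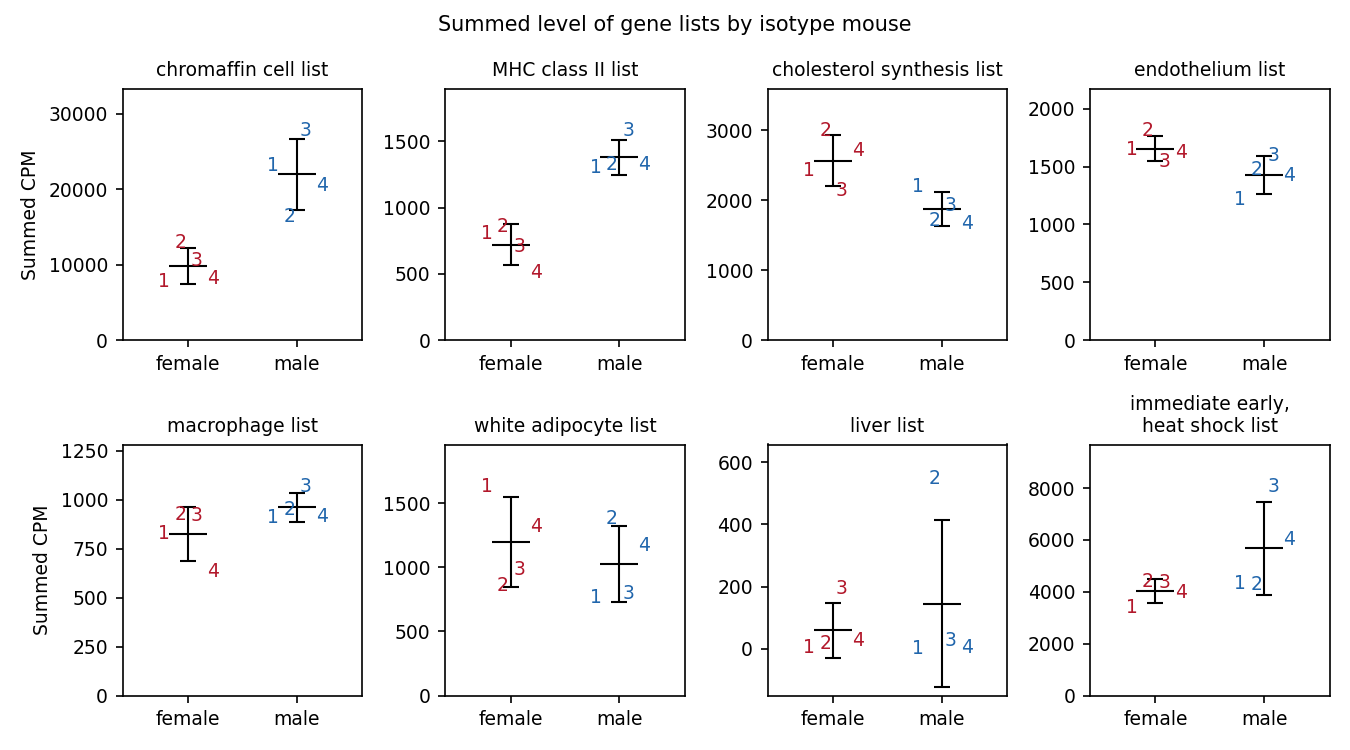
Summed CPM of 8 gene lists (y axes, 1 panel a list) in each isotype mouse, shown by its number, with bars for the mean and error bars for the SD (n = 4). Chromaffin and MHC class II sums do not overlap between the sexes. The cholesterol synthesis, endothelium, macrophage, white adipocyte, liver, and immediate early and heat shock sums do.

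Of 21 endothelial genes, 5 were higher in females and 0 lower, with a median of 0.22 (23.8% called, against 18.6% of all autosomal genes). Cldn5, a tight junction protein, had the largest change (19.9, 18, 20.7 and 20.6 CPM in females 1 to 4 and 7.16, 12.2, 10.9 and 11.1 CPM in males 1 to 4, log2 fold change 0.94, adjusted p = 8.89e-05). The others were Egfl7 (0.47), Robo4 (0.45), Emcn (0.38) and the angiopoietin receptor Tek (0.42). Without female 2, male 1 or male 2, or without both male 2 and female 3, 3 were higher, and the call of Tek ended without any mouse but female 3 or male 4 (adjusted p 0.0509 to 0.0744). The general markers Pecam1, Cdh5 and Kdr were not called, at 0.24, 0.19 and 0.21. Of 42 genes of fibroblasts and matrix, 2 were higher and 5 lower, a share of 16.7% called against 18.6% of all autosomal genes. Lama4, a laminin chain of basement membranes, was at 66.3, 70.3, 51.6 and 49.2 CPM in females 1 to 4 and 10.2, 12.8, 12.4 and 13.3 CPM in males 1 to 4 (log2 fold change 2.28, SE 0.18, adjusted p = 3.07e-08), and Sparc was modestly higher (0.52). Without female 3, 4 members were higher. Elastin Eln (-0.76), the collagen chain Col1a1 (-0.64), the protease inhibitor Timp2 (-0.63), Fbln1 (-0.51) and Lama1 (-0.42) were lower, and other fibrillar collagens such as Col3a1 (-0.31) and Col1a2 (-0.25) were not called. Of 13 pericyte and smooth muscle genes, Cnn1, Myh11 and Rgs5 were lower and 0 higher (23.1% called, against 18.6% of all autosomal genes), and the pericyte receptor Pdgfrb was at -0.07. All 3 of these calls ended without female 1, female 4 or male 3, and 1 member was lower without female 2, female 3 or male 2.

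Enzymes of glutathione and peroxide metabolism, abundant in a gland whose P450 enzymes leak oxygen radicals, were called in both directions. Of 29 tested, 9 were higher and 5 lower in females (48.3% called, against 18.6% of all autosomal genes). The lower genes were the μ class transferases Gstm1, Gstm2, Gstm3 and Gstm5 and the θ class gene Gstt1, led by Gstm3 (-1.50), with Gstm2 at 179, 218, 230 and 148 CPM in females 1 to 4 and 271, 321, 439 and 325 CPM in males 1 to 4 (log2 fold change -0.81, adjusted p = 0.000284). Higher were the peroxiredoxin Prdx6 (331, 392, 343 and 361 CPM in females 1 to 4 and 166, 151, 160 and 168 CPM in males 1 to 4, log2 fold change 1.15, adjusted p = 1.85e-08), catalase Cat (0.90), the transferase Gstk1 (1.31) and the synthesis enzymes Gclc (0.36) and Gss (0.68). Gsta2 had 31, 67, 43 and 19 counts in females and 0 in each male. It has near-identical relatives, so that its level is uncertain. Without female 2 or male 2, 3 genes were called lower.

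Of 40 cell cycle genes, 2 were higher and 1 lower (7.5% called, against 18.6% of all autosomal genes), and Mki67 (0.49) and Top2a (0.29) were not called. The called genes were Cdkn1c, an inhibitor of cyclin-dependent kinases (401, 511, 437 and 648 CPM in females 1 to 4 and 149, 112, 170 and 150 CPM in males 1 to 4, log2 fold change 1.78, adjusted p = 2.12e-08), and the cyclins Ccnd3 (0.71) and Ccnd1 (-0.33), the last of which was called with female 4 left out and lost without any other mouse (adjusted p 0.0536 to 0.131). Clock genes differed in both directions, with 5 of 18 higher and 6 lower (61.1% called, against 18.6% of all autosomal genes). Nr1d1 (log2 fold change 1.04, adjusted p = 0.00132) and Dbp (log2 fold change 1.22, adjusted p = 0.00837), which are driven by the core activator, were higher, while the activator gene Arntl, at 26.9, 25.9, 27.4 and 39.9 CPM in females 1 to 4 and 55.6, 51.1, 51.5 and 50.9 CPM in males 1 to 4 (log2 fold change -0.80, adjusted p = 0.000113), and Per1, Per2, Cry1 and Hlf were lower. Without male 2 and female 3, 2 clock genes were higher and Dbp was not called (adjusted p = 0.0585). The count of lower clock genes was 3 without female 1, female 2 or male 3, and the call of Per2 ended without any mouse but female 3 or male 4 (adjusted p 0.0502 to 0.0822). The hour at which each mouse was taken is not given, and its part in these differences was not tested.

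Among genes that respond within minutes to handling or dissection, Fos differed widely between mice of 1 sex and Jun less so. Of 21 immediate early and heat shock genes, 1 was higher (Fosl2) and 3 lower (Jun, Hspb1 and Ier3), with a median of -1.16. This was 19% called, against 18.6% of all autosomal genes, and without male 1 or male 2, 5 were lower. Fos was at 2.69, 6.79, 37.3 and 23.7 CPM in females 1 to 4 and 2.41, 52.4, 248 and 124 CPM in males 1 to 4 and was not called (log2 fold change -2.60, adjusted p = 0.173). Males 2, 3 and 4 were each above all 4 females for Fos, and male 1 was below them. Jun was at 203, 262, 180 and 176 CPM in females 1 to 4 and 389, 472, 562 and 418 CPM in males 1 to 4 (log2 fold change -1.16, adjusted p = 0.000157). The call of Ier3 ended without female 1, female 2, male 3 or male 4 (adjusted p up to 0.0997). Of 11 glucocorticoid-induced genes, 3 were lower in females (Fkbp5 at -0.95, Per1 and Lcn2; 27.3% called, against 18.6% of all autosomal genes), and their summed level was 499, 595, 589 and 564 CPM in females 1 to 4 and 754, 751, 959 and 738 CPM in males 1 to 4. Without male 1, 5 of these 11 were lower, and without both male 2 and female 3, 1 was lower and Lcn2 was not called (adjusted p = 0.0515). Lcn2 rested on 13 and 147 summed counts. Sgk1 (-0.04), Klf9 (0.17) and Zbtb16 (-0.17), other targets of the glucocorticoid receptor, were not called. The part of stress or handling in any other difference was not tested.

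The summed level of liver markers was highest in male 2 and female 3. Of 7 liver genes tested, 0 were called (against 18.6% of all autosomal genes), with a median of -1.79. Their summed level was 3.13, 16.0, 193 and 26 CPM in females 1 to 4 and 1.95, 547, 26.5 and 2.91 CPM in males 1 to 4, most of it Alb, with Cps1, Tat and Cyp3a11 under the filter. With so few genes and this spread between mice, 0 calls do not show that the sexes were alike. Serpina1e, a liver gene chosen after its values were seen, was called lower (log2 fold change -5.38, adjusted p = 0.0217) with 3809 of 3949 male counts in male 2, and without male 2 its log2 fold change was -1.07 (adjusted p = 0.431). Of the kidney list, 12 genes were under the filter and 1, Cubn, was not called. Of 7 gonad genes, Ddx4, a germ cell helicase, was higher on 103 counts in females and 17 in males (log2 fold change 2.57, adjusted p = 0.00612), and Inhba, which cortical cells also express, was lower (28.6% called, against 18.6% of all autosomal genes). Without male 2, 2 gonad genes were higher, and without female 4 or male 4, 0 were lower. The pancreas gene Cela1 and the muscle genes Myh1 and Mylpf, the tested members of their lists, were not called. Erythroid genes (0 of 7) and brown adipocyte genes (0 of 10) were not called, against 18.6% of all autosomal genes called.

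The same comparison in the 8 mice given anti-CD115 used other animals. There, 3435 autosomal genes were called (21.4%), with 1775 higher (11.1%) and 1660 lower (10.4%) in females. Of the 1362 genes higher in isotype females, 1320 (96.9%) had the same sign in those mice and 962 were called in that direction, and of the 1618 lower genes, 1572 (97.2%) and 948. Among all genes tested, 47.8% had a log2 fold change above 0 in those mice. The 1910 genes called the same way in both were 64.1% of the isotype calls and 55.6% of the anti-CD115 calls. Frzb (log2 fold change 6.50, adjusted p = 7.46e-08), Srd5a2 (log2 fold change -4.23, adjusted p = 1.54e-12), Prlr (log2 fold change 1.72, adjusted p = 4.49e-09) and Cyp11b1 (log2 fold change 0.75, adjusted p = 0.000124) held their direction there. Cholesterol synthesis genes were higher for 12 of 22 and lower for 0, and class I and interferon genes for 11 of 28 and 0. Of the chromaffin genes, 12 of 26 were lower there (median -0.55), and of the MHC class II genes 2 of 10 (median -0.39). Of the endothelial genes, 0 were higher and 1 was lower of 21. Of the 7 tested mast cell and granulocyte genes, 1 was higher there and 0 lower. A test of the difference between the sex contrasts called 0 genes with edgeR (smallest adjusted p = 0.633), with 1209 at an unadjusted p under 0.05, and 1 gene with DESeq2. Within the anti-CD115 males, male 4 had Akr1c18 at 17.4 CPM, against 0 to 0.0400 CPM in the other 3, together with 0.408 CPM of Xist.

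**Figure D5:**
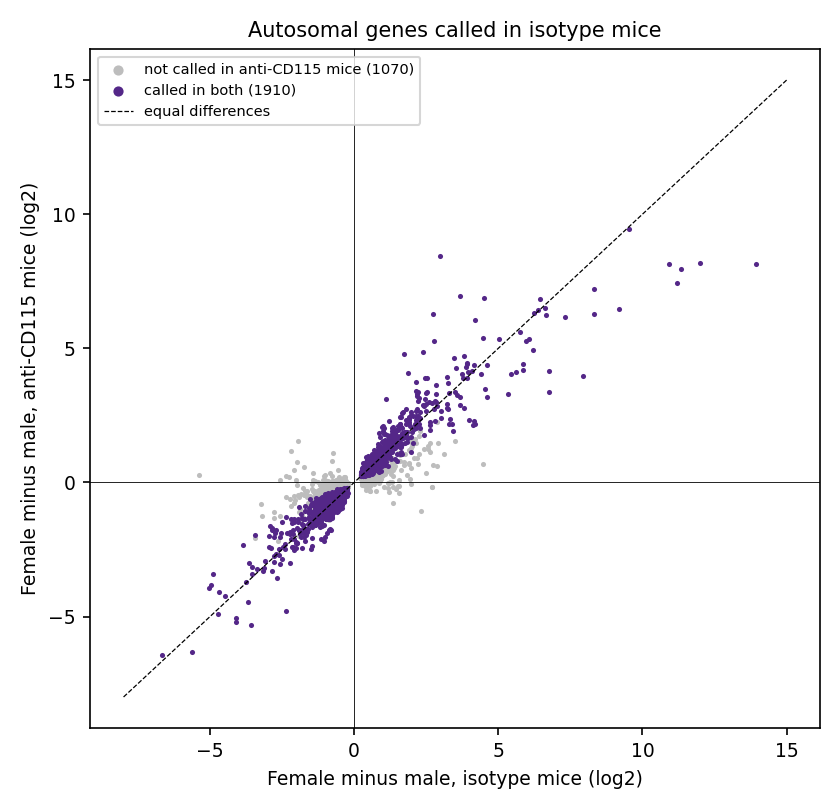
Female minus male log2 fold change in isotype mice (x axis) and in anti-CD115 mice (y axis) for the 2980 autosomal genes called in isotype mice, with 1910 called the same way in both in purple and 1070 others in grey, and a dashed line of equal values. Most points lie where both values have the same sign.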

How the data were processed

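RNA from both adrenal glands of each mouse was sequenced as stranded paired-end libraries. The authors aligned reads with HISAT2 2.2.1 to GRCm38 and counted fragments per gene with featureCounts 2.0.1, and the deposited values are raw counts, per the file headers, without fragments that had several alignments or overlapped several genes. The files list 51912 genes, of which 51633 were matched to a symbol.

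Counts were analysed with edgeR 4.0.16 in R 4.3.3 (filterByExpr with minimum count 10 and minimum total 15, TMM factors, quasi-likelihood fit with robust estimation, 1 mean per group over all 16 mice). Two-sided tests of female against male isotype mice were adjusted with Benjamini-Hochberg over 16654 genes, and genes with an adjusted p-value under 0.05 were called. The X, Y and mitochondrial genes (3142 called on all chromosomes, 154 on X and 5 on Y) were then left out. Means, SDs and values by mouse are TMM-normalized CPM. Each SE is the absolute log2 fold change divided by the square root of the quasi-likelihood F statistic. It is rough for genes at or near 0 in 1 sex. The floor of 3 counts and the intervals of count ratios cover counting error only. The labels do not say whether the mice came from separate litters or cages, so p-values measure the spread between these mice. On simulated data edgeR recovered 139 of 200 genes changed 2-fold with 6 false calls among 16420 genes, and DESeq2 1.42.0 recovered 144 with 24 false calls among 16654. The simulated counts were drawn with the dispersions that edgeR had fitted. Only those 200 genes differed, far fewer than were called in the mice, so these rates need not hold for the real data.

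The genes named were 12 rises and 12 falls of the largest size (groups apart, log2 level 1 or more), the 3 smallest adjusted p-values in each direction, 10 single genes with exact permutation tests, and up to 4 called members of each list. All members of the steroid, receptor and MHC class II lists could be named, and further members, Serpina1e and Dock8 were chosen after their values were seen. The genes and lists were chosen with earlier results of these data known. Alternatives were RLE factors, other filters, TMM after removal of mitochondrial and the 10 top genes, the 8 isotype mice alone, a replicate block, legacy edgeR, DESeq2, an adipocyte score, subtraction of gene length trends, a 2-fold minimum change, and each mouse left out. Leaving out both mice with the most Alb was chosen after seeing the data. Some list members are counted but not reported here by name, and sequences are from RefSeq.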

Additional observations from a re-analysis of the deposited data

Results flagged for a closer look

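In 332 sets of 4 mice examined (values of named genes, summed lists and library measures), 24 held 1 mouse whose gap to the others passed Dixon's limit for 4 values, where chance gives about 1 set in 20. Male 3 stood apart most often. It was the highest male for Xrra1 (2.12 CPM), Cyp21a1 (17970 CPM), Ncam1 (66.7 CPM) and the summed levels of sustentacular and Schwann cell (141 CPM), MHC class II (1579 CPM), MHC class I and interferon (2369 CPM), erythroid (770.0 CPM) and glucocorticoid-induced genes (959 CPM), and the lowest for Nr1d1 (298 CPM).

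Liver transcripts stood out in male 2 (547 CPM summed, Serpina1e at 139 CPM and Cyp2f2 at 9.09 CPM) and in female 3 (193 CPM summed). Male 1 was the highest male for Thrb (28.8 CPM), which made up the X-zone sum of that mouse (28.8 CPM), and for Arntl (55.6 CPM). Male 4 was the lowest for Irf8 (15.5 CPM) and had the single Pik3c2g count of all males (0.0388 CPM). Among females, female 1 was the lowest for Gsta3 (24.5 CPM), Cpa3 (1.47 CPM) and the glutathione list (5288 CPM summed), female 2 the highest for Nr1d1 (921 CPM), female 3 for Hsd3b6 (77.8 CPM) and female 4 for Arntl (39.9 CPM).

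Dock8, a guanine nucleotide exchange factor of leukocytes, was the 1 autosomal gene whose sex difference differed between isotype and anti-CD115 mice with DESeq2 (log2 difference -1.12, adjusted p = 0.0166), and it was not called with edgeR (adjusted p = 0.633). It was at 11.7, 15.7, 15.4 and 11.6 CPM in isotype males and at 6.25, 5.25, 5.44 and 4.57 CPM in anti-CD115 males 1 to 4. In females it was at 27.9, 31.6, 19.9 and 27.4 CPM with isotype and at 26.1, 23.7, 21.2 and 19.8 CPM with anti-CD115. The groups did not overlap in males and did in females.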

How the results depend on the processing

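Of the 127 named genes, 120 were called, and 105 stayed called with each mouse left out in turn. Under the alternatives in which a named gene had a value, 0 changed direction. Values were held by 109 of them with at least 10 counts in every isotype mouse. With DESeq2, and with the 8 isotype mice alone, 124 had a value. Genes called numbered 1102 to 1272 higher and 1199 to 1544 lower with 1 mouse left out, and 1032 and 1361 with male 2 and female 3 both left out, when 4 class I and interferon genes were higher. RLE factors gave 1341 and 1640, DESeq2 1516 and 1793, and the 8 isotype mice alone 1217 and 1470. Requiring a 2-fold change as well left 393 and 414 genes, with 6 in cholesterol synthesis, 9 in chromaffin cells, 1 in MHC class II, 1 in class I and interferon genes and, by construction, no more calls in any other list. At least 10 counts in every isotype mouse left 1 X-zone gene called, Thrb, because the other 2 are at or near 0 in males. With 1 mouse left out, 6 to 9 class I and interferon genes, 5 to 6 MHC class II genes, 20 to 23 chromaffin genes and 9 to 11 cholesterol synthesis genes were called. Akr1b7 was also called with the 8 isotype mice alone, with DESeq2 and without the length trend, Pnmt in the same 3, and Csf1r with the 8 mice alone. Calls ended for Gzma, Hsd3b1, Fdxr and Serpina1e with the 8 mice alone, for Lcn2 with DESeq2, for Hsd3b1 without the length trend, for Ier3 with no low-count filter, for Gzma and Lyve1 with legacy edgeR and for Ccnd1 and Lyve1 with the adipocyte score. Counts of called genes in other lists also moved by over 1.5 times. With the 8 isotype mice alone, lower calls numbered 2 in steroid synthesis, 3 in macrophages, 1 in chemokines, 5 in immediate early and heat shock genes and 5 in glucocorticoid-induced genes, and higher calls 1 in lymphocytes and 0 in gonads. Under DESeq2, 3 steroid conversion genes were higher, 4 fibroblast and matrix genes higher and 8 lower, and 9 immediate early and heat shock genes lower. At least 10 counts in every isotype mouse gave 3 steroid conversion, 4 fibroblast and matrix, 1 lymphocyte and 0 gonad genes higher and 1 chemokine lower. Legacy edgeR gave 1 capsule and 1 lymphocyte gene higher, 1 chemokine lower and 0 macrophage genes lower. The adipocyte score as a covariate gave 8 fibroblast and matrix genes and 0 cell cycle genes lower, and removing the length trend 5 glucocorticoid-induced genes lower. TMM without the 10 most counted and mitochondrial genes also gave 8 fibroblast and matrix genes lower. The causes were not tested.

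Pairing of the mice by the replicate numbers in the labels was not detected, which does not show that it was absent. Same-numbered females and males correlated in their deviations at 0.115, -0.117, -0.0149 and -0.0718 (other pairs -0.198 to 0.154), and 0 of 4 females and 1 of 4 males were best with their own number. A replicate block gave 1329 genes higher and 1562 lower, and it ended the calls of Cma1 and Ccnd1 and added Akr1b7, with 2 macrophage, 5 immediate early and heat shock and 0 cell cycle genes lower. At these depths a gene under 3 counts a mouse cannot be told from 0, and folds near that floor are imprecise.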
